A study of Homo sapiens with 10 samples.

Results

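The genes described here are those of the melanocyte lineage and of pigmentation: the transcription factors that set up the lineage, its surface receptors, the enzymes of melanin synthesis, the proteins that build and move the melanosome, and other genes used as lineage markers. The list holds 33 genes, and every probe set of the array that carried the symbol of exactly 1 of them was taken. Such a probe set was found for 32 of the 33 genes, out of 11963 genes in all. After a filter on low signal, 28 of these genes, with 41 probe sets, were left for testing among 6390 genes. DCT, a melanin enzyme, was not analysed here.

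Total RNA of MDA-MB-435 cells was hybridised to 10 Affymetrix hgu133a arrays. The line is labelled as melanoma and was once taken for a breast cancer line. The arrays form 5 groups of 2 biological duplicates: untreated cells (labelled WT), cells treated with hepatocyte growth factor (HGF, the ligand of the receptor MET) for 1, 6 or 24 h, and cells transduced with integrin Beta4 (ITGB4), which were not given HGF. All groups are the same cell line in standard growth conditions. The labels of the ITGB4 cells also hold the word Mock, cells transduced with an empty vector are not among the 5 groups, and the dose of HGF and whether the ITGB4 cells are 1 clone are not given in the sources used here. The values are the authors' RMA values, in which the probes of a probe set are combined into 1 value per array on the log2 scale and the arrays are normalized to each other, so a difference of 1 is a 2-fold change in signal.

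Melanocytes arise from the neural crest, and their identity rests on MITF, a transcription factor that binds the promoters of pigment genes. SOX10 and PAX3 activate MITF, and signals through the receptors KIT and MC1R control its level and activity. Its targets include TYR, the rate-limiting enzyme of melanin synthesis, and TYRP1, a second enzyme of the pathway. Melanin is made in the melanosome, an organelle built on PMEL fibrils and carried along actin by a complex of RAB27A, MLPH and the motor MYO5A. Melanoma cells can keep this program or lose it while they take on invasive features.

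MITF is known to bind a form of the E-box, CATGTG, in pigment gene promoters. The sequences of RefSeq on GRCh38.p14 gave promoter windows of 300 bases, 250 before the start of the transcript and 50 after it, for 26 of the 33 genes. CATGTG was found on either strand in 12 of 43 windows of these genes (27.9%), which belong to 11 genes, and in 11.1% of all 35116 windows. The symmetric E-box CACGTG was in 4.65% of the lineage windows, of GPM6B and MLPH, against 7.26% of all windows. ACAAAG, a motif of SOX factors, was in 18.6% against 16.1%. The 4 promoters shown are those of the genes that were measured above the filter and hold CATGTG 2 times. Each is the 250 bases before the transcript start, 5′ to 3′ on the strand of the gene, with CATGTG or its reverse complement CACATG in capitals.
TYR, chr11:89177625-89177874, plus strand: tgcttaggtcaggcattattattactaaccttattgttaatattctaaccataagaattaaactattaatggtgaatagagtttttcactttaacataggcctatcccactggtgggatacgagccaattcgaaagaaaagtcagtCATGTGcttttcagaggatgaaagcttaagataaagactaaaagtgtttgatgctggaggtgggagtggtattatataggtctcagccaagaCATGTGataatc
TYRP1, chr9:12693135-12693384, plus strand: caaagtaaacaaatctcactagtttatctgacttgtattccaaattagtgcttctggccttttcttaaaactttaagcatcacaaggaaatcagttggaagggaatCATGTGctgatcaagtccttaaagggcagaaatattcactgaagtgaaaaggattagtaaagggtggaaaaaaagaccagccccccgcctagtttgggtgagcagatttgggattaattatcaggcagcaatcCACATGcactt
GPR143, chrX:9765848-9766097, minus strand: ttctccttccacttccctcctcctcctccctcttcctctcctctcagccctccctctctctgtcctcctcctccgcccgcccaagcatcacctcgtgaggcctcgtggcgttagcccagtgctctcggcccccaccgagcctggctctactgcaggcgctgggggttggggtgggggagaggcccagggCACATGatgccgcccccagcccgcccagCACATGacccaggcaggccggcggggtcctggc
GPNMB, chr7:23246525-23246774, plus strand: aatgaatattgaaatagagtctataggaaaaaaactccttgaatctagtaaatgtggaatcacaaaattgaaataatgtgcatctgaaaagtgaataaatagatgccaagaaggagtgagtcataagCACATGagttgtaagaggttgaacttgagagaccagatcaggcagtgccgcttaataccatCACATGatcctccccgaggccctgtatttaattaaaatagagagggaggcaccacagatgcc
The TYR matches begin 104 and 12 bases before the start, and those of TYRP1 144 and 11 bases before it. A match is a description of the sequence and not a measured binding site.

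The label of the line was set beside the levels. Of the 32 lineage genes with a probe set, 87.5% passed the filter, which kept probe sets whose second-highest value over the 10 arrays was at least 7.3, against 53.4% of all genes. The list was chosen with earlier results of these data known, so this share describes the levels and does not test the label. MITF, SOX10, TYR, TYRP1, PMEL, MLANA, GPR143 and GPNMB had values above 10 on every array, each on its brightest probe set. The genes that did not pass were KIT, OCA2, SLC45A2 and TRPM1, with values under 7.3 on every array. Of markers of other cell types, 5 of 25 epithelial, 4 of 13 fibroblast, 0 of 8 haematopoietic and 1 of 6 endothelial genes passed, and none of those was called against untreated cells. Between HGF times ESRP1, an epithelial splicing factor, was 0.76 higher at 6 than at 1 h and differed by -0.62 at 24 against 6 h, KRT18 by -0.52 at 24 against 6 h, and the fibroblast marker DCN on 211813_x_at, 1 of its 2 kept probe sets, by -0.39 at 6 against 1 h. The ESRP1 levels at 1 and 24 h and the DCN level at 6 h on this probe set lay under 7.3, so the size of these differences is not exact. The part of these markers in the comparisons between HGF times was not tested. KRT18, an epithelial keratin also found in other cells, was the brightest epithelial marker, with values from 9.20 to 9.99. In the ITGB4 cells the 3 kept probe sets of ITGB4 were higher by 6.46, 6.37 and 5.65 (log2 differences, whose size is not exact since the untreated levels lie under 7.3), while MET was not called in any group against untreated cells. Between HGF times MET was called lower at 24 than at 6 h on 203510_at, 1 of its 3 kept probe sets (-0.70, limma adjusted p = 0.0384).

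Differences between groups were tested with limma on all probe sets that passed the filter, with the spread within groups taken from all 10 arrays and p-values adjusted by Benjamini-Hochberg over all 10176 of them. A probe set was called at an adjusted p under 0.05, and a gene counted once when any of its probe sets was called. The HGF times and the ITGB4 cells share the same 2 untreated arrays, so these 4 comparisons are not independent of each other. In bulk RNA fewer cells of a type and less RNA per cell cannot be told apart. With 2 arrays against 2, the median 95% interval of a lineage gene reached 0.31 to each side of its difference. This interval is not adjusted for the number of probe sets, so larger differences could miss the call, as -0.67 for GPM6B at 24 h did. An exact two-sided permutation test of 1 gene could not go below p = 0.333.

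**Figure D1:**
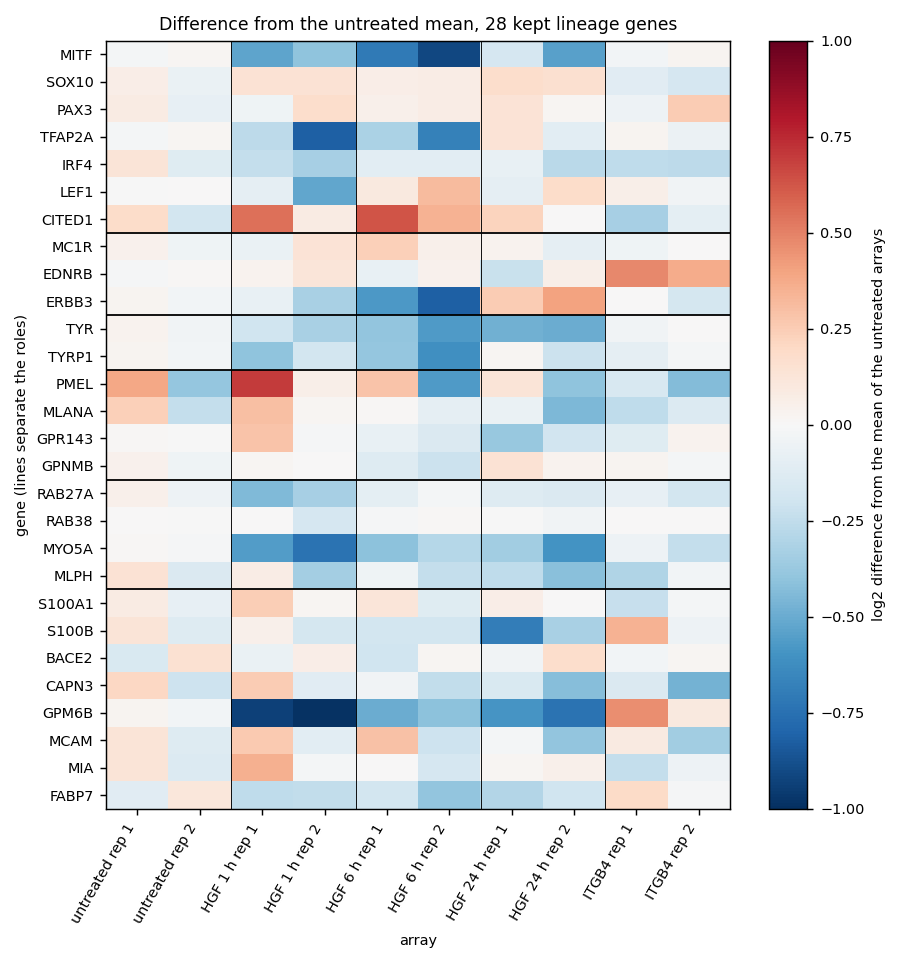
Log2 difference of each array (columns, 2 per group) from the mean of the untreated arrays for the 28 lineage genes that passed the filter (rows, ordered by role), each by its brightest probe set. MITF was lower on all HGF arrays, most at 6 h, GPM6B was lowest at 1 h, ERBB3 was low at 6 h and high at 24 h, and SOX10 stayed within 0.2 of the untreated mean.

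After 1 h with HGF, 3 lineage genes were lower than in untreated cells and 0 were higher: GPM6B, MYO5A and RAB27A. Over all genes tested, 6.45% were called lower and 0.814% higher in this comparison, and 3 of 28 lies close to that background. The median difference of the lineage genes was -0.03, against 0.07 for all genes. Both treated arrays lay below both untreated arrays for 11 lineage genes and above them for 2, where the shares over all genes were 25% and 36.1%.

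GPM6B, a proteolipid of the cell membrane, had the largest difference of the lineage genes at 1 h. Its probe set 209170_s_at read 10.34 and 10.29 in untreated cells, 9.38 and 9.32 at 1 h, 9.82 and 9.90 at 6 h, 9.72 and 9.57 at 24 h, and 10.78 and 10.41 in ITGB4 cells. On this probe set all HGF arrays lay below the untreated arrays and all ITGB4 arrays above them. At 1 h it was 1.95-fold lower (log2 difference -0.96, SE 0.14, limma adjusted p = 0.00929). The other kept probe sets were lower as well, 209167_at by a log2 difference of -0.82 (limma adjusted p = 0.0252) and 209168_at by -0.60 (limma adjusted p = 0.0415). On both of these the ITGB4 arrays overlapped the untreated arrays.

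MYO5A, the myosin motor that carries melanosomes on actin, read 10.03 and 10.01 in untreated cells, 9.46 and 9.28 at 1 h, 9.61 and 9.73 at 6 h, 9.67 and 9.43 at 24 h, and 9.98 and 9.78 in ITGB4 cells. All HGF arrays lay below both untreated arrays at every time. It was 1.57-fold lower at 1 h (log2 difference -0.65, SE 0.13, limma adjusted p = 0.0263). The differences at 6 h, -0.35, and at 24 h, -0.47, did not pass the test.

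RAB27A, the small GTPase that recruits MLPH and MYO5A to the melanosome, was called from only part of its probe sets. On 222294_s_at the values were 9.97 and 9.65 in untreated cells, 9.06 and 9.02 at 1 h, 8.98 and 8.92 at 6 h, 9.67 and 9.09 at 24 h, and 9.88 and 9.50 in ITGB4 cells. This probe set was lower at 1 h by a log2 difference of -0.77 (limma adjusted p = 0.0449) and at 6 h by -0.86 (limma adjusted p = 0.0300). On 209515_s_at the differences were -0.75 at 1 h and -0.72 at 6 h, and both were called. The brightest probe set, 210951_x_at, differed by -0.39 at 1 h (limma adjusted p = 0.0713) and -0.06 at 6 h, and 209514_s_at by -0.28 and 0.06. The 4 probe sets thus gave the same sign at 1 h and split at 6 h, where only the 2 called ones were far from 0. Averaged over the kept probe sets, RAB27A was called at 1 h and not at 6 h. With p-values adjusted over the comparisons together it was called at neither time, with limma adjusted p-values of 0.0779 and 0.0565 on 222294_s_at and 0.0754 and 0.0829 on 209515_s_at, and with cyclic loess 209515_s_at missed the threshold at 6 h (adjusted p = 0.0553).

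**Figure D2:**
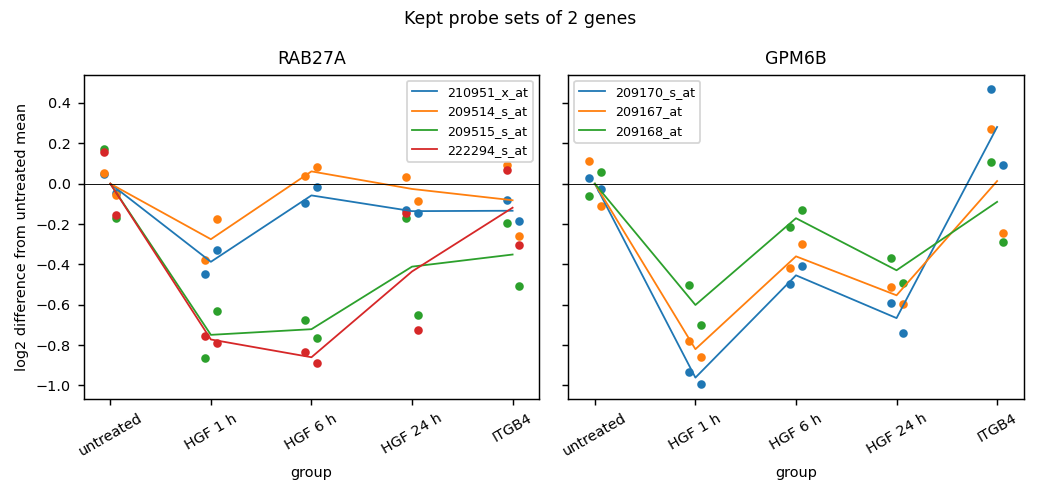
Log2 difference from the untreated mean of each kept probe set of RAB27A (4 probe sets, left) and GPM6B (3 probe sets, right) by group, with a point per array and a line through the group means. The 3 GPM6B probe sets move together over the HGF times, lowest at 1 h, and lie at 0.28, 0.01 and -0.09 in ITGB4 cells. At 6 h 2 RAB27A probe sets lie at -0.72 and -0.86 and the other 2 near 0.

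The other roles held no call at 1 h. The 7 transcription regulators ranged from -0.54 (TFAP2A) to 0.32 (CITED1), and MITF had a log2 difference of -0.47 (limma adjusted p = 0.0781). The 3 receptors tested ranged from -0.20 (ERBB3) to 0.08 (EDNRB). A dim probe set of EDNRB, 204273_at, lies under the filter. Tested with no filter, it was 0.99 lower at 1 h on the log2 scale (limma adjusted p = 0.0118), while the bright EDNRB probe sets 204271_s_at and 206701_x_at differed by 0.08 and 0.07. The 1 h count fell to 0 when either untreated array or replicate 1 of HGF 1 h was left out, with 0% of all genes called in each of these runs. It fell to 1 (GPM6B) when replicate 2 of HGF 1 h was left out, with 8.73% of all genes called. Over these runs the GPM6B difference on 209170_s_at stayed between -0.99 and -0.93, that of MYO5A between -0.74 and -0.56 and that of RAB27A on 222294_s_at between -0.93 and -0.62.

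After 6 h with HGF, 4 lineage genes were lower than in untreated cells and 0 were higher. They were MITF, TYR, ERBB3 and RAB27A, which places a call among the transcription regulators, the melanin enzymes, the receptors and the melanosome transport genes. Over all genes 2.97% were called lower and 4.73% higher, given here as the background and not as a test of the list. The median difference of the lineage genes was -0.11, against 0.01 for all genes, and 21 of the 28 had a difference below 0. For 11 lineage genes both treated arrays lay below both untreated arrays and for 3 above them, where the shares over all genes were 28.3% and 32%.

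MITF read 11.16 and 11.19 in untreated cells, 10.65 and 10.77 at 1 h, 10.47 and 10.26 at 6 h, 11.01 and 10.63 at 24 h, and 11.15 and 11.20 in ITGB4 cells. All HGF arrays lay below the untreated arrays, those of 6 h lowest. At 6 h it was 1.75-fold lower (log2 difference -0.81, SE 0.14, limma adjusted p = 0.0126). Between 6 and 24 h it rose by 0.46 (SE 0.14, limma adjusted p = 0.0461), and at 24 h the difference from untreated cells was -0.35 (limma adjusted p = 0.408). The call between 6 and 24 h was lost with no filter (adjusted p = 0.0665), with cyclic loess normalization (adjusted p = 0.0570), with the arrays of those 2 groups alone (adjusted p = 0.0691) and with p-values adjusted over all comparisons together (adjusted p = 0.0842), and it remained in 3 of the 10 limma runs that left out 1 array (differences 0.27 to 0.64, adjusted p from 0.0220 to 0.282). The call at 6 h held with no filter and with cyclic loess.

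TYR, the enzyme whose promoter is shown above with CATGTG at 2 places, read 12.17 and 12.10 in untreated cells, 11.94 and 11.81 at 1 h, 11.74 and 11.57 at 6 h, 11.65 and 11.64 at 24 h, and 12.09 and 12.14 in ITGB4 cells. It was 1.40-fold lower at 6 h (log2 difference -0.48, SE 0.12, limma adjusted p = 0.0392). At 24 h the difference was as large, -0.49, but did not pass the test (limma adjusted p = 0.346). The call at 6 h was lost with no filter (adjusted p = 0.0558) and when each array was centred on its median (adjusted p = 0.0595). It was also lost with p-values adjusted over all comparisons together.

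TYRP1 read 11.96 and 11.91 in untreated cells, 11.53 and 11.75 at 1 h, 11.55 and 11.32 at 6 h, 11.96 and 11.72 at 24 h, and 11.84 and 11.91 in ITGB4 cells. The arrays of 1 and 6 h lay below the untreated arrays and those of 24 h overlapped them. Its difference at 6 h, -0.50, was close to that of TYR but just missed the threshold (SE 0.14, limma adjusted p = 0.0548). Between 6 and 24 h it differed by 0.40 (limma adjusted p = 0.0609).

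ERBB3, a receptor of neuregulins in the neural crest and in melanoma, read 9.31 and 9.25 in untreated cells, 9.21 and 8.96 at 1 h, 8.70 and 8.47 at 6 h, 9.53 and 9.69 at 24 h, and 9.28 and 9.10 in ITGB4 cells. The 6 h arrays were the lowest of all and the 24 h arrays the highest. At 6 h it was 1.62-fold lower than in untreated cells (log2 difference -0.70, SE 0.14, limma adjusted p = 0.0193) and 1.41-fold lower than at 1 h (-0.50, limma adjusted p = 0.0323). From 6 to 24 h it rose 2.03-fold (log2 difference 1.02, SE 0.14, limma adjusted p = 0.00175). At 24 h its difference from untreated cells, 0.33, did not pass the test (limma adjusted p = 0.424).

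**Figure D3:**
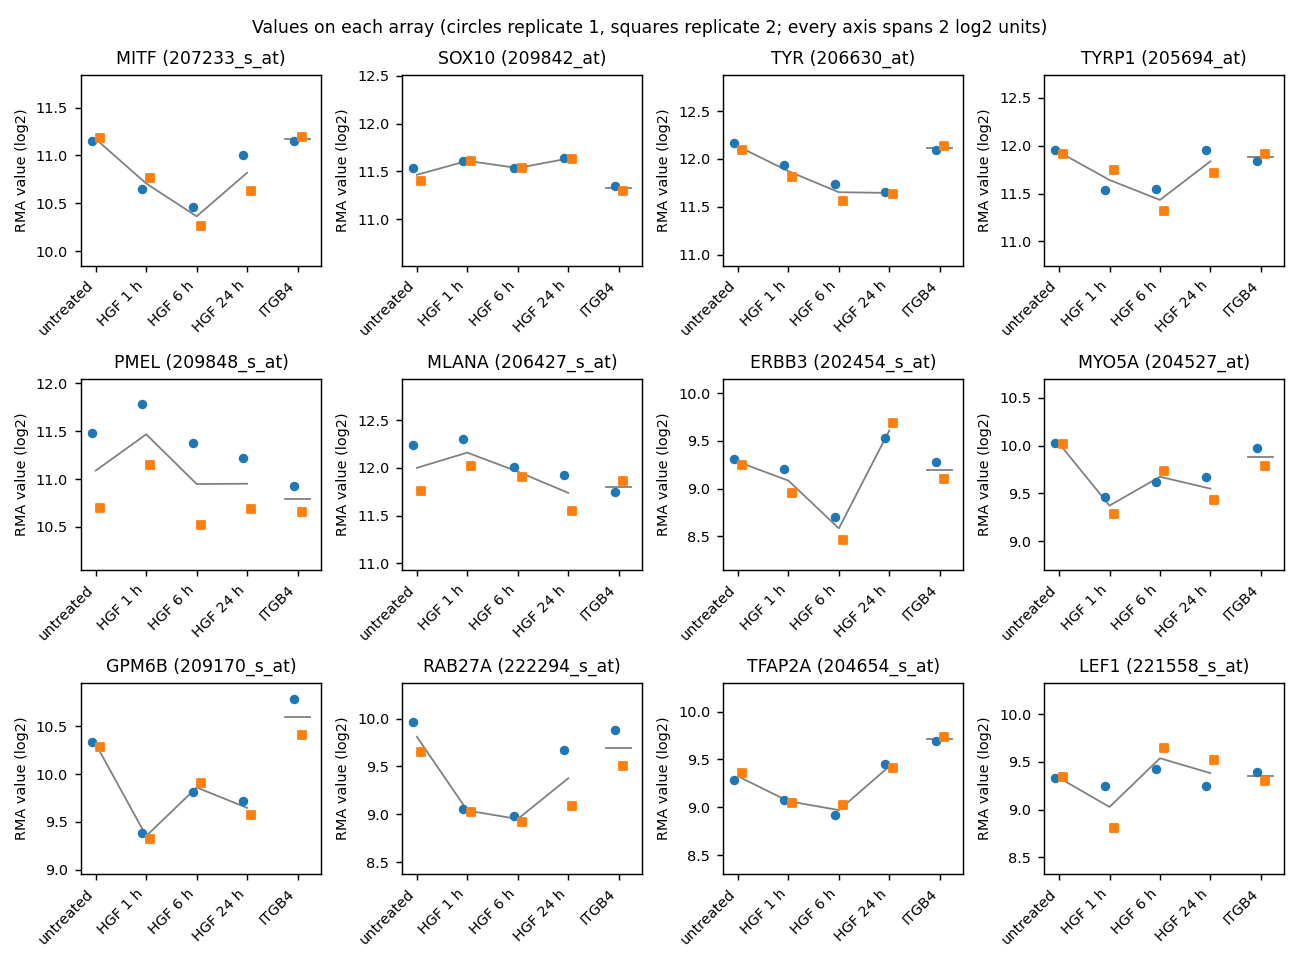
RMA values (log2, vertical axes, each spanning 2 units) of 12 lineage genes on every array, by group, with circles for replicate 1, squares for replicate 2 and a line or bar at the group means. Called genes are drawn on their probe set with the lowest limma adjusted p. For RAB27A (222294_s_at) and TFAP2A (204654_s_at) this is not the brightest probe set. MITF and ERBB3 were lowest at 6 h, TYR was lower at 6 and 24 h than in untreated cells, SOX10 stayed between 11.29 and 11.64, and the 2 replicates of PMEL lie apart in each group.

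The 6 h count fell to 0 when any of the 4 arrays compared, untreated replicate 1 or 2 or HGF 6 h replicate 1 or 2, was left out, and the share of all genes called fell to between 0.235% and 0.892%. The differences stayed between -0.91 and -0.71 for MITF, between -0.82 and -0.58 for ERBB3 and between -0.57 and -0.39 for TYR. With the arrays of only the 2 groups compared, 9 lineage genes were called lower and 21.3% of all genes were called.

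The other lineage genes did not pass the test at 6 h. SOX10 read 11.53 and 11.40 in untreated cells, 11.61 and 11.61 at 1 h, 11.53 and 11.54 at 6 h, 11.64 and 11.63 at 24 h, and 11.35 and 11.29 in ITGB4 cells. Its difference at 6 h was 0.07, with a 95% interval from -0.17 to 0.31. PMEL, the fibril protein, read 11.48 and 10.70 in untreated cells, 11.79 and 11.15 at 1 h, 11.37 and 10.52 at 6 h, 11.22 and 10.68 at 24 h, and 10.93 and 10.66 in ITGB4 cells. Replicate 1 was the higher array in every group, and the 95% interval at 6 h ran from -0.86 to 0.58. MLANA, a membrane protein of early melanosomes, read 12.24 and 11.76 in untreated cells, 12.30 and 12.02 at 1 h, 12.01 and 11.91 at 6 h, 11.93 and 11.55 at 24 h, and 11.74 and 11.86 in ITGB4 cells. Its difference at 6 h was -0.04, with a 95% interval from -0.44 to 0.36. GPR143, a receptor in the melanosome membrane, differed by -0.11 and GPNMB, a glycoprotein of the melanosome, by -0.17 at 6 h, neither past the test. The promoters of both hold CATGTG 2 times as those of TYR and TYRP1 do. A link between the motif and the change in level was not tested.

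CITED1, a transcriptional coregulator, had the largest positive difference of the lineage genes at 6 h, 0.49, and did not pass the test (limma adjusted p = 0.147). TFAP2A, which acts with MITF at melanocyte genes, differed by -0.49 on 204653_at and -0.35 on 204654_s_at, also without a call. PAX3 differed by 0.06 and IRF4, which helps MITF to activate TYR, by -0.10. MC1R, the melanocortin receptor, differed by 0.14 and EDNRB, the endothelin receptor, by -0.02. PAX3, with 1 of 3 probe sets kept, had values from 7.371 to 7.705 over the arrays, and MC1R from 7.356 to 7.682. Both lay close to the filter level of 7.3, so the size of their differences is not exact. RAB38, which acts in the delivery of pigment enzymes, and S100A1, a calcium-binding protein, differed by less than 0.01.

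The remaining lineage genes had no call in any of the 6 comparisons. MLPH, which links RAB27A to MYO5A, had values from 9.48 to 10.04 over the arrays and its largest difference from untreated cells at 24 h, -0.34. S100B, a calcium-binding marker of the lineage, ranged from 8.97 to 10.02 with -0.51 at 24 h, and FABP7, a fatty acid-binding protein of neural crest derivatives, from 10.96 to 11.55 with -0.29 at 6 h on its brighter probe set, while 205029_s_at differed by -0.55 at 1 h (limma adjusted p = 0.0784). MIA, a secreted protein of melanoma cells, ranged from 9.99 to 10.59 with 0.17 at 1 h, and BACE2 from 11.47 to 11.84 with -0.09 at 6 h. The largest difference of MCAM was -0.21 at 24 h and that of CAPN3 -0.30 in ITGB4 cells. The means over the 10 arrays of the genes under the filter were 5.09 for KIT and 6.94 for OCA2, and 6.32 for SLC45A2 and 4.97 for TRPM1 on their brighter probe sets, and no probe set of these 4 genes was called when the filter was left out.

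**Figure D4:**
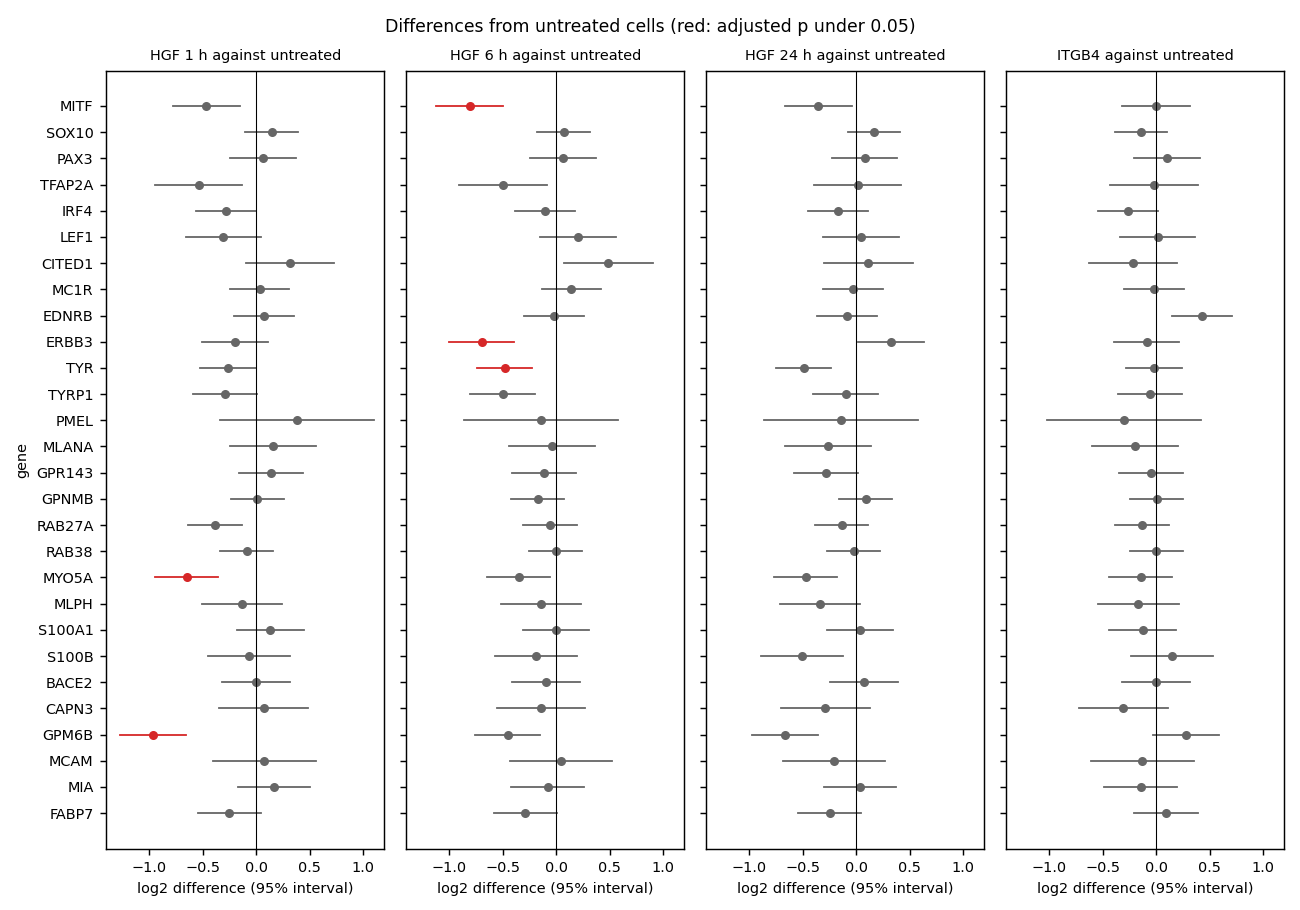
Log2 difference from untreated cells (horizontal axes) with its 95% interval for the 28 lineage genes, each by its brightest probe set, in the 4 comparisons with untreated cells, red where the limma adjusted p was under 0.05. Calls lie at 1 h (MYO5A, GPM6B) and 6 h (MITF, ERBB3, TYR), all on the lower side, and PMEL has the widest intervals.

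After 24 h with HGF, 0 lineage genes were called in either direction, and over all genes 0% were called higher and 0% lower. At an unadjusted p under 0.05 by limma, 9 lineage genes stood out, 8 of them lower, where 13.5% of all genes did in either direction. The lower ones were GPM6B (-0.67), TYR (-0.49), MYO5A (-0.47), S100B (-0.51), MITF (-0.35), MLANA on 206426_at (-0.71), FABP7 on 205029_s_at (-0.42) and RAB27A on 209515_s_at (-0.41) and 222294_s_at (-0.43), and the higher one was ERBB3 (0.33). On their brightest probe sets MLANA, FABP7 and RAB27A differed by -0.26, -0.25 and -0.14. The median difference of the lineage genes was -0.12 against 0.01 for all genes. Both treated arrays lay below the untreated arrays for 10 lineage genes and above them for 2, against 23.5% and 22.7% of all genes.

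In the ITGB4 cells 0 lineage genes were called against untreated cells, while 0.0469% of all genes were called higher, ITGB4 among them, and 0% lower. MITF differed by 0.00 with a 95% interval from -0.31 to 0.31, TYR by -0.02 (-0.28 to 0.24), TYRP1 by -0.06 (-0.36 to 0.25) and SOX10 by -0.14 (-0.39 to 0.10), so a difference the size of that of MITF at 6 h lies outside the intervals of these genes. At an unadjusted p under 0.05 by limma there were 3 lineage genes, against 7.92% of all genes: EDNRB (0.43), TFAP2A on 204654_s_at (0.39) and LEF1 on 210948_s_at (-0.45). On their brighter probe sets TFAP2A and LEF1 differed by -0.02 and 0.01, and the ITGB4 level of LEF1 on 210948_s_at lay under 7.3. The 2 ITGB4 arrays lay above the untreated arrays for 2 lineage genes and below them for 4, against 14.7% and 18.7% of all genes, by the brightest probe set of each gene.

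Compared directly, HGF 6 h against 1 h, 2 lineage genes were higher and 1 lower, where 13.5% of all genes were called higher and 8.15% lower. GPM6B was 0.51 higher at 6 h on the log2 scale on 209170_s_at, 1 of 3 kept probe sets (SE 0.14, limma adjusted p = 0.0302). On 209167_at and 209168_at it was 0.46 and 0.43 higher without a call (limma adjusted p = 0.0727 and 0.0649). The 3 probe sets had their lowest mean at 1 h. ERBB3 was the lower gene. LEF1, a transcription factor of the WNT pathway, was called on 221558_s_at, 1 of its 2 kept probe sets. There it read 9.33 and 9.34 in untreated cells, 9.25 and 8.81 at 1 h, 9.43 and 9.65 at 6 h, 9.25 and 9.52 at 24 h, and 9.39 and 9.31 in ITGB4 cells. It was 0.51 higher at 6 than at 1 h (SE 0.16, limma adjusted p = 0.0499). On 210948_s_at, whose 1 h level lay under 7.3, it was 0.21 higher without a call (limma adjusted p = 0.233). The LEF1 call ended with no filter (adjusted p = 0.0602) and with median centring (adjusted p = 0.0708), which left 1 gene higher and 1 lower. It was also lost with averaged probe sets, with the arrays of those 2 groups alone and with p-values adjusted over all comparisons together. Not every call held when 1 array was left out. Over the 10 such runs the difference ran from 0.29 to 0.73 for LEF1 and from -0.625 to -0.37 for ERBB3. For GPM6B on 209170_s_at it ran from 0.46 to 0.55.

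Compared directly, HGF 24 h against 6 h, 3 lineage genes were higher and 0 lower: ERBB3, MITF and TFAP2A. Over all genes 8.15% were called higher and 14% lower. TFAP2A on 204654_s_at read 9.29 and 9.36 in untreated cells, 9.08 and 9.05 at 1 h, 8.91 and 9.03 at 6 h, 9.45 and 9.41 at 24 h, and 9.70 and 9.74 in ITGB4 cells. It was 0.46 higher at 24 than at 6 h (SE 0.11, limma adjusted p = 0.0171), and its brighter probe set 204653_at, with a difference of 0.51, missed the threshold (limma adjusted p = 0.0767). The calls of MITF and TFAP2A did not hold in every run that left out 1 array. Over these 10 runs the difference ran from 0.27 to 0.64 for MITF and from 0.40 to 0.51 for TFAP2A on 204654_s_at. For ERBB3 it ran from 0.905 to 1.14.

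Around these genes lie pathways whose members are not themselves on the list. Their counts are given beside the shares of all genes called, which were 6.45% lower and 0.814% higher at 1 h, 2.97% lower and 4.73% higher at 6 h, 8.15% lower and 13.5% higher at 6 against 1 h, and 14% lower and 8.15% higher at 24 against 6 h. No count was tested as particular to its list. Of 31 genes of melanosome assembly and transport on the array, 27 were tested, and 3 were lower after 1 h: LYST (-1.07 on 203518_at), a regulator of lysosome-related organelles, GNPTAB (-0.80), which tags lysosomal enzymes, and PIKFYVE (-0.71), a lipid kinase of endosomes. After 6 h HPS6 was higher (0.52) and STX12 lower (-0.43 on 212111_at, 1 of its 2 kept probe sets, which gave every call of STX12). Between 1 and 6 h LYST, MREG and VAMP7 were higher, 3 of 27 against 13.5% of all genes, and STX12 lower, and from 6 to 24 h MREG (-0.76) and HPS6 were lower and STX12 higher. The list held no call at 24 h or in ITGB4 cells.

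Of 46 genes of the melanocortin, endothelin, KIT ligand and WNT signals to MITF and related transcription factors, 30 were tested. After 1 h 3 genes of protein kinase A were lower, PRKACB (-1.02 on 202741_at, 1 of 2 kept probe sets), PRKAR2B (-0.78, its level at 1 h under 7.3, so that the size is not exact) and PRKAR1A (-0.64 on 200603_at, 1 of 3), which is 3 of 30 against 6.45% of all genes. After 6 h TFAP2C (0.69 on 205287_s_at, 1 of 2, its untreated level under 7.3) and TBX2 (0.64 on 213417_at, 1 of 3), transcription factors of the neural crest and of melanoma, were higher, and SNAI2, a neural crest factor, was lower (-0.78). SNAI2 was higher again at 24 than at 6 h (0.79). In this list 4 of 30 genes were higher and 1 lower at 6 than at 1 h, against 13.5% and 8.15% of all genes, and 2 were higher and 3 lower at 24 than at 6 h, against 8.15% and 14%. Calls at 24 h and in ITGB4 cells against untreated cells were 0.

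Of 36 reported MITF targets outside pigmentation, 30 were tested, with 2 lower at 1 h, against 6.45% of all genes, and 3 higher and 1 lower at 6 h, against 4.73% and 2.97%. BCL2A1, an inhibitor of apoptosis, fell by 0.86 at 1 h, to a level under 7.3, and was 0.70 higher than in untreated cells at 6 h. IVNS1ABP was lower at 1 h (-0.83 on 201362_at, 1 of 3 kept probe sets, its 1 h level under 7.3). DUSP4 (0.76 on 204015_s_at, 1 of 2), a phosphatase of MAP kinases, and SQSTM1 (0.58 on 201471_s_at, 1 of 2), an autophagy receptor, were higher at 6 h, and INPP4B (-0.64), a lipid phosphatase, was lower. At 6 against 1 h 4 were higher and 1 lower. At 24 against 6 h 1 was higher and 5 of 30 lower, MET on 203510_at among them, against 14% of all genes. None was called at 24 h or in ITGB4 cells against untreated cells.

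Of 39 markers of dedifferentiated, invasive melanoma cells, 25 were tested. At 1 h JUN was higher (0.71 on 201464_x_at, 1 of 2 kept probe sets) and ZEB1 (-0.99) and VCAN (-0.95 on 211571_s_at, 1 of 3) were lower, both to levels under 7.3. At 6 h FOSL1, a partner of JUN in AP-1, was higher (1.59) and so was PLAUR, the urokinase receptor (0.56 on 211924_s_at). At 24 against 6 h 5 of 25 were lower, against 14% of all genes, led by FOSL1 (-2.07), NT5E (-1.07) and MMP2 (-0.78), and 3 were higher, LOXL2 (0.63), TGFBI (0.53) and CD44 (0.51 on 204490_s_at, with 2 of 6 probe sets called). At 6 against 1 h 3 were higher and 0 lower, against 13.5% and 8.15%, and 0 were called at 24 h or in ITGB4 cells against untreated cells. The median differences of these 4 lists at 6 h were -0.10, -0.06, -0.07 and 0.06, in the order given, against 0.01 for all genes.

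The replicates of some lineage genes differed in the same direction in every group. PMEL was higher on replicate 1 in all 5 groups, by 0.27 to 0.85, and MCAM, an adhesion molecule, by 0.26 to 0.50. CAPN3, a protease, was higher by 0.21 to 0.41 and GPNMB by 0.01 to 0.11, while BACE2, a protease that cleaves PMEL, was higher on replicate 2 by 0.05 to 0.31. Such one-way differences were found in 5.43% of all genes for replicate 1 and 6.98% for replicate 2. Signal ratios of the control probe sets for 3′ and 5′ ends ranged over the arrays from -0.57 to -0.09 (log2) for ACTB and from -0.21 to -0.01 for GAPDH, and their part in the results was not tested.

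**Figure D5:**
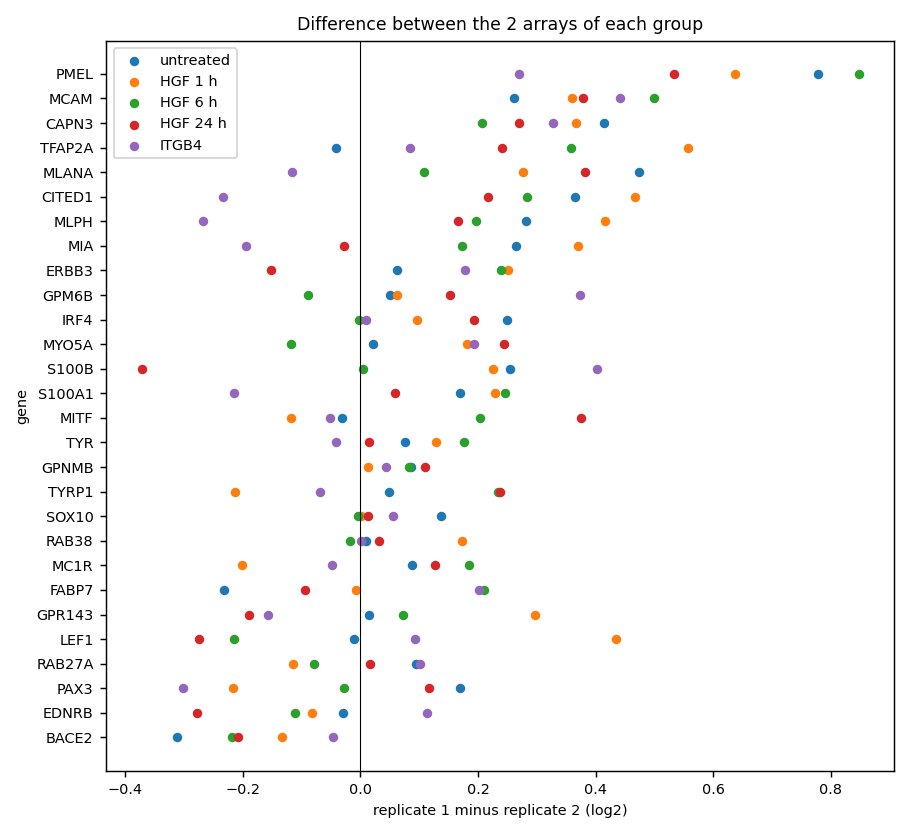
Replicate 1 minus replicate 2 (log2, horizontal axis) for the 28 lineage genes that passed the filter, with a point per group in its own colour. PMEL, MCAM, CAPN3 and GPNMB lie right of 0 in all 5 groups and BACE2 left of it, with PMEL reaching 0.85.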

How the data were processed

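The authors made the values with RMA in the affy package, and the deposited table holds log2 values normalized between arrays; versions are not given in the sources used here. The table was not filtered on presence calls. Of 22283 probe sets, 68 were controls, 19065 carried 1 gene symbol in the platform annotation, 1043 several and 2107 none, and those without a single symbol were tested but not named. The 10176 non-control probe sets with a second-highest value of at least 7.3 were kept. Array medians ran from 6.81 to 6.88, and precision is limited by the 2 arrays of each group.

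A mean per group was fitted with limma 3.58.1 in R 4.3.3 (5 residual degrees of freedom), in 6 comparisons, each adjusted by Benjamini-Hochberg on its own. The code was tested on simulated data. The lineage genes and the other lists were chosen with earlier results of these data known. The brightest kept probe set stands for a gene where no other is named. Values on every array are given for MITF, SOX10, TYR, TYRP1, PMEL and MLANA and for each called lineage gene, and up to 4 called genes each way are named from the other lists. The alternatives covered the filter, the normalization between arrays, averaging of probe sets, a replicate block, the omission of each array in turn, a fit of only 2 groups, the prior, the adjustment and Dunnett's test (mvtnorm 1.3.3). MCAM is represented by 1 probe set, since others carry a second symbol. The Illumina arrays of the study were not analysed here.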

Additional observations from a re-analysis of the deposited data

Results flagged for a closer look

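In 6 cases the change after HGF differed between time points by a direct limma test between them. They were 3 of 28 lineage genes in each comparison. Of all genes, 21.6% were called for 6 against 1 h and 22.2% for 24 against 6 h. ERBB3 was the clearest, lower at 6 than at 1 h by a log2 difference of -0.50 (adjusted p = 0.0323) and higher at 24 than at 6 h by 1.02 (adjusted p = 0.00175). GPM6B was higher at 6 than at 1 h by 0.51 (adjusted p = 0.0302), and LEF1 on 221558_s_at by 0.51 (adjusted p = 0.0499). MITF was higher at 24 than at 6 h by 0.46 (adjusted p = 0.0461), and TFAP2A on 204654_s_at by 0.46 (adjusted p = 0.0171). The calls of LEF1 and MITF were lost with no filter.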

How the results depend on the processing

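Of the named differences under alternative settings, 672 kept their direction and side of the threshold, 104 kept the direction and lost the call, 14 gained one and 16 changed sign, 0 of them called differences. Without 1 array PMEL ran from -0.0095 to 0.77 at 1 h, -0.56 to 0.28 at 6 h, -0.53 to 0.25 at 24 h and -0.69 to 0.0917 in ITGB4 cells. MLANA on 206427_s_at ran from -0.0779 to 0.40 at 1 h, -0.28 to 0.20 at 6 h and -0.43 to 0.0398 in ITGB4 cells, TYRP1 from -0.22 to 0.0211 at 24 h, and in ITGB4 cells TYR from -0.056 to 0.0198 and MITF from -0.0253 to 0.0259. With cyclic loess MITF in ITGB4 cells was -0.0155 in place of 0.0003. Leaving out 1 array gave 0 to 4 called lineage genes at 1 h, 0 to 5 at 6 h, 0 to 0 at 24 h and in ITGB4 cells, 0 to 3 for 6 against 1 h and 1 to 4 for 24 against 6 h; the lone array of a group is then assumed to vary like the other groups. Each count below is given with the share of all genes called in the same run. With the arrays of 2 groups only, the 6 h count was 9 (21.3%). A trended and robust prior gave 5 for 24 against 6 h (22.5%). Adjustment over comparisons together gave 2 at 6 h (3.91%), 1 at 24 h (GPM6B, 0.235%) and 0 for 6 against 1 h (14%). Dunnett's test at its own threshold gave 6 at 1 h (13.2%), 4 at 24 h (3.82%) and 3 in ITGB4 cells (4.07%). Unadjusted p-values gave 9, 10, 9 and 3 against untreated cells at 1, 6 and 24 h and in ITGB4 cells (31%, 26.8%, 13.5% and 7.92%), and 6 in each comparison between HGF times (39.9% and 37.6%). The cause was not tested. No other setting moved a count by over 1.5 times. The differences between replicates 1 and 2 correlated between groups with r from -0.14 to 0.46 over the kept probe sets. It was over 0.1 in 8 of 10 pairs of groups. Over the lineage genes r ran from 0.0022 to 0.61. For untreated cells it was 0.55, 0.59 and 0.55 with HGF 1, 6 and 24 h and 0.05 with ITGB4 cells. Replicate numbers were to be taken as pairs only if r passed 0.1 in all pairs of groups, so the main fit holds no replicate term. Shared differences between replicates are thus part of its spread within groups. With a replicate block the lineage counts against untreated cells were 3 (9.69%), 5 (10.8%) and 0 (0%) at 1, 6 and 24 h and 0 (0.0782%) in ITGB4 cells. For 6 against 1 h the count was 3 (25.8%), 1 higher and 2 lower. For 24 against 6 h it was 4 (25.5%), 3 higher and 1 lower. In this limma fit TYRP1 passed at 6 h (adjusted p = 0.0496), and LEF1 did not for 6 against 1 h (adjusted p = 0.0501). PMEL was lower at 6 than at 1 h (-0.52, adjusted p = 0.0315) and MLANA on 206426_at at 24 than at 6 h (-0.49, adjusted p = 0.0344). In the 6 comparisons 796, 902, 0, 7, 2248 and 2302 probe sets were called in place of 577, 632, 0, 5, 1859 and 1983. With 2 arrays a group and signal near background, KIT, OCA2, SLC45A2 and TRPM1 could not be assessed.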
